A study of Mus musculus with 10 samples.

Results

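Polycomb repressive complex 2 (PRC2) is represented here by 9 genes, chosen by name: Ezh1 and Ezh2 (catalytic subunits), Eed and Suz12 (the other core subunits), and Jarid2, Aebp2, Mtf2, Phf1 and Phf19 (accessory subunits). They were found in 10 of the 29610 rows of the 2.5-month table, where Mtf2 occupied 2 rows, and in 9 of the 54532 rows of the 3-month table. No row joined a PRC2 gene with a neighbour. Bulk RNA was sequenced from mouse somatosensory cortex of a pair of conditional knockouts (cKO) of Nsd1, which encodes a methyltransferase of histone H3 lysine 36. The Nex model, aged 2.5 months, had 3 libraries labelled Nsd1Nex-cKO (Nex_cKO) and 3 control libraries (Nex_Ctrl), of which replicates 1 and 2 were labelled Nsd1fl/+ and replicate 3 Nsd1fl/fl. The Camk2a model, aged 3 months, had 2 libraries labelled Nsd1Camk2a-cKO (Camk2a_cKO) and 2 control libraries labelled Nsd1fl/+ (Camk2a_Ctrl). Most controls thus carried a floxed and a wild-type allele, and the labels do not state whether controls carried Cre. Nex drives Cre in newly postmitotic excitatory neurons of the cortex, and Camk2a in maturing forebrain excitatory neurons, so the remaining cells of the tissue kept Nsd1 in both models. Nothing in the labels says that each library came from a separate mouse, so p-values measure the spread between these libraries.

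PRC2 places methyl groups on lysine 27 of histone H3, a mark of silenced genes. EZH1 and EZH2 are alternative catalytic subunits, of which EZH2 is the one typical of dividing progenitors and EZH1 the one typical of postmitotic cells, neurons among them. EED binds the finished mark and stimulates the enzyme, and SUZ12 holds the core together and docks the accessory subunits. JARID2 and AEBP2 define the form called PRC2.2, and the Polycomb-like proteins PHF1, MTF2 and PHF19 define PRC2.1. In biochemical work, methylation of lysine 36 on a histone tail hinders PRC2 from methylating lysine 27 of the same tail, which is why the levels of PRC2 genes are of interest where a lysine 36 methyltransferase is deleted.

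The catalytic pair differed widely in level. The 250 bases before the RefSeq start of each gene are shown because these promoters precede paralogues of unequal level in the same tissue; CG dinucleotides are in capitals. The sequences are from RefSeq (GRCm38.p6, minus strand in both cases, printed 5′ to 3′ along the gene), for Ezh1 at chr11:101226464-101226713 and for Ezh2 at chr6:47595031-47595280. The Ezh2 window lies within the gene as the 3-month table places it (47530139 to 47595341), since the annotated starts differ.
Ezh1: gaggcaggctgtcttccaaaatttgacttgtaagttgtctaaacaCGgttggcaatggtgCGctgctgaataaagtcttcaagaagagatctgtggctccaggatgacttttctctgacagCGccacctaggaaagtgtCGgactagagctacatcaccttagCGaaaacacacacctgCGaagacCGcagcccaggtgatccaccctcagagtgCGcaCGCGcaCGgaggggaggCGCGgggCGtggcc
Ezh2: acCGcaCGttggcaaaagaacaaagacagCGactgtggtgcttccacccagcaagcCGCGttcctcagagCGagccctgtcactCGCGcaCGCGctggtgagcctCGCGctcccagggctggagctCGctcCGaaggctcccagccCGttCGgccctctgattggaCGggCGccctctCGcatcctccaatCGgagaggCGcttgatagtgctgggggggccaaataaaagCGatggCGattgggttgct
The Ezh1 window held 14 CG dinucleotides and 55.2% G or C, and the Ezh2 window held 23 and 63.6%. Over 32851 such RefSeq windows the median was 6 CG dinucleotides and 52.4% G or C. At least as many CG dinucleotides as at Ezh1 were found in 29.36% of windows, and at least as many as at Ezh2 in 13.31%. All 9 genes had a window, 13 in all, with between 1 (a window of Aebp2) and 37 (Suz12) CG dinucleotides. The E2F motif, searched on both strands as TTTCCCGC, TTTCGCGC, TTTGCCGC or TTTGGCGC, was present in 2 of the 13 windows, those of Suz12 and Phf19, against 1.86% of all windows. These letters were not in the windows of Ezh1 and Ezh2.

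The deposited values are FPKM, fragments per kilobase of transcript scaled to the fragments of the library, on which genes of different length can be compared within a library. The 2 tables hold different sets of rows and were normalized separately, so levels were not compared across them. For the Nex model the deleted gene shares a row with its abundant neighbour Prelid1, which had 91.0, 118.1 and 105.6 FPKM in Nex_cKO libraries, against 129.9, 125.1 and 141.4 FPKM in Nex_Ctrl libraries (log2 change -0.34, adjusted p = 0.0863). How much of it is Nsd1 could not be read. In the 3-month table Nsd1 (chromosome 13, 55209782 to 55318325) had 4.31 and 4.99 FPKM in Camk2a_cKO libraries, against 5.61 and 8.87 FPKM in Camk2a_Ctrl libraries, and the groups did not overlap (log2 change -0.52, adjusted p = 0.685). Depth could be recovered only from the 3-month table: 16901717 to 16943855 reads in Camk2a_cKO and 17521841 to 20074933 reads in Camk2a_Ctrl libraries. Among the Nex libraries, the one labelled Nex_cKO replicate 3 differed from the rest: it expressed the Y-linked Ddx3y (16.2 FPKM, against 0 in the other 5), and rows without a gene name held 41.6% of its summed FPKM, against 2.33% to 19.4%. In bulk tissue, fewer cells of a type and less RNA per cell cannot be told apart. Excitatory neuron markers were present in every library, with 6 of 6 tested in both models. Their summed level was 1263 to 1390 FPKM in Nex_cKO and 1418 to 1514 FPKM in Nex_Ctrl libraries. There 1 marker rose (Neurod2, log2 change 0.35) and 2 fell (Neurod6, -0.80, and Tbr1, -0.46), for reasons that were not tested. The sum was 902 to 995 FPKM in Camk2a_cKO and 896 to 971 FPKM in Camk2a_Ctrl libraries (0 called).

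None of the PRC2 genes passed the test in either model. In the Nex model, 8 of the 9 passed the filter on low values and 0 were called higher or lower (limma on log2(FPKM + 1), Benjamini-Hochberg adjusted p under 0.05 over 12528 rows), also without Nex_cKO replicate 3. Over all rows tested, 4.47% were called higher and 4.06% lower. At an unadjusted p under 0.05, 2 PRC2 genes stood out, Phf1 with a lower and Suz12 with a higher level, where 23.5% of all rows did. The cKO and control values did not overlap for 5 of the 8, namely Ezh1, Eed, Suz12, Jarid2 and Phf1, where 30.4% of all rows did not overlap. The median log2 change of the 8 was -0.11 (range -0.25 to 0.25), beside a median of -0.04 over all rows. Of the 9 genes in the Camk2a model, 7 passed the filter and 0 were called, with 0 at an unadjusted p under 0.05, also by limma's voom on recovered reads. There, 0% of 12919 rows were called higher and 0% lower, and 6.96% had an unadjusted p under 0.05. The groups did not overlap for 2 of the 7, Suz12 and Jarid2, against 37.3% of all rows. The median log2 change was 0.01 (range -0.07 to 0.20), beside -0.01 over all rows.

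**Figure D1:**
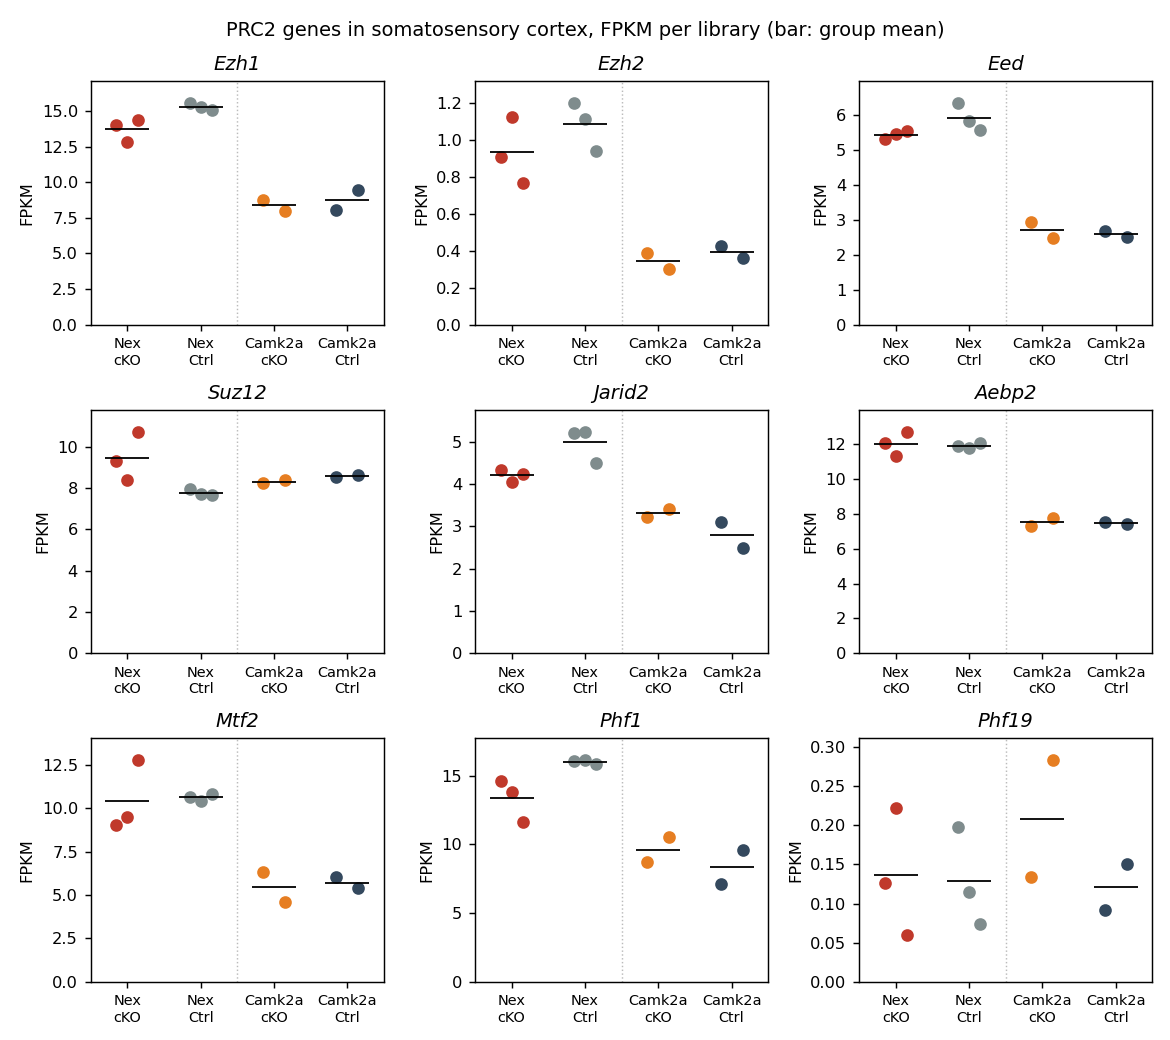
FPKM of each PRC2 gene (vertical axis, linear from 0, separate scale per gene) in every library; points are libraries, bars are group means, and within each model cKO stands left of control. Ezh1 lay between 12.8 and 15.5 FPKM in the Nex libraries while Ezh2 lay between 0.765 and 1.20 FPKM.

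Of the catalytic subunits, Ezh1 (ENSMUSG00000006920, chromosome 11, 101191115 to 101226463) was among the 2 most abundant PRC2 genes in every group. It had 14.0, 12.8 and 14.4 FPKM in Nex_cKO libraries, against 15.5, 15.3 and 15.1 FPKM in Nex_Ctrl libraries. All 3 cKO values lay below all 3 control values, but the difference was small (log2 change -0.15, SE 0.07, 95% interval -0.31 to 0.02, adjusted p = 0.277). The Camk2a libraries had 8.73 and 8.01 FPKM in the cKO group, against 8.07 and 9.46 FPKM in the control group, with overlapping groups (log2 change -0.06, interval -0.34 to 0.22, adjusted p = 0.953).

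Ezh2 (ENSMUSG00000029687, chromosome 6, 47530139 to 47595341) was near the lower limit of what was tested. It had 0.904, 1.13 and 0.765 FPKM in Nex_cKO libraries, against 1.20, 1.11 and 0.941 FPKM in Nex_Ctrl libraries. The groups overlapped (log2 change -0.11, interval -0.40 to 0.17, adjusted p = 0.641). With quantile normalization the log2 change was -0.36 (adjusted p = 0.174). It was below the filter in the Camk2a model, with 0.387 and 0.303 FPKM in cKO libraries, against 0.426 and 0.364 FPKM in control libraries. These rest on 46 and 34 recovered reads in cKO libraries and 49 and 48 in control libraries; the exact 95% Poisson interval of the lowest is 23.55 to 47.51 reads and that of the highest 36.25 to 64.78 reads, which cover counting error only. No difference of Ezh2 between the Camk2a groups was detected (limma, adjusted p = 0.921 with no filter), and what size could be detected at this depth was not tested. Markers of dividing cells, in which Ezh2 is known to be high, summed to 3.60 to 5.37 FPKM in Nex_cKO and 4.94 to 5.50 FPKM in Nex_Ctrl libraries over 10 genes, of which 2 were tested and 0 called. Over the Camk2a libraries they summed to 3.04 to 3.06 FPKM in cKO and 3.03 to 3.96 FPKM in control libraries. Mki67, a defining marker of cycling cells, had 0.0276 to 0.0409 FPKM in Nex_cKO and 0.0364 to 0.0538 FPKM in Nex_Ctrl libraries, and 0.0279 and 0.0650 FPKM in Camk2a_cKO and 0.116 and 0.0452 FPKM in Camk2a_Ctrl libraries.

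Set against each other within a library, Ezh1 exceeded Ezh2 by 15.5-, 11.4- and 18.8-fold in Nex_cKO libraries, and by 13.0-, 13.7- and 16.0-fold in Nex_Ctrl libraries. The excess in the Camk2a model was 22.6- and 26.5-fold in cKO libraries, against 18.9- and 26.0-fold in control libraries. The ratio overlapped between cKO and control in both models. The difference in the log2 ratio was 0.07 in the Nex model (exact permutation test, two-sided, p = 0.9) and 0.14 in the Camk2a model (exact permutation test, two-sided, p = 0.667). With 3 against 3 libraries the smallest p this test allows is 0.1, and with 2 against 2 it is 0.333. Its sign in the Nex model hangs on Nex_cKO replicate 3, without which the difference was -0.10, and in the Camk2a model on Camk2a_Ctrl replicate 1, without which it was -0.09. With quantile normalization the difference was 0.40 in the Nex model (exact permutation p = 0.2) and 0.33 in the Camk2a model (exact permutation p = 0.333).

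The other core subunits had differences of opposite sign in the Nex model, neither past the test. Suz12 (ENSMUSG00000017548, chromosome 11, 79993106 to 80034123) had 9.31, 8.39 and 10.7 FPKM in Nex_cKO libraries, against 7.96, 7.69 and 7.66 FPKM in Nex_Ctrl libraries. Every cKO library was above every control library, with Nex_cKO replicate 3 the highest (log2 change 0.25, SE 0.10, interval 0.03 to 0.47, adjusted p = 0.163). Without Nex_cKO replicate 3 the log2 change was 0.17 (adjusted p = 0.271), and without Nex_cKO replicate 2 it was 0.33 (adjusted p = 0.0724), the lowest adjusted p of any PRC2 gene under the alternatives run. Suz12 had 8.22 and 8.40 FPKM in Camk2a_cKO libraries, against 8.53 and 8.63 FPKM in Camk2a_Ctrl libraries. Here the cKO values were the lower ones, by little (log2 change -0.04, interval -0.27 to 0.19, adjusted p = 0.959), and the sign turned with voom on recovered reads (0.01).

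Eed (ENSMUSG00000030619, chromosome 7, 89954654 to 89980983) had 5.32, 5.44 and 5.53 FPKM in Nex_cKO libraries, against 6.34, 5.84 and 5.57 FPKM in Nex_Ctrl libraries. The cKO values lay just below the controls, the nearest pair being 5.53 and 5.57 (log2 change -0.10, interval -0.30 to 0.09, adjusted p = 0.516). It had 2.94 and 2.49 FPKM in Camk2a_cKO libraries, against 2.69 and 2.50 FPKM in Camk2a_Ctrl libraries, which overlapped (log2 change 0.04, interval -0.27 to 0.36, adjusted p = 0.971).

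Of the PRC2.2 subunits, Jarid2 (ENSMUSG00000038518, chromosome 13, 44729474 to 44921643), a catalytically inactive jumonji family member, had groups without overlap in both models, in opposite directions. The same held for Suz12, and for 30.4% of all rows in the Nex and 37.3% in the Camk2a model taken singly. Jarid2 had 4.33, 4.04 and 4.24 FPKM in Nex_cKO libraries, against 5.20, 5.23 and 4.50 FPKM in Nex_Ctrl libraries. All cKO values were lower (log2 change -0.20, SE 0.09, interval -0.41 to 0.02, adjusted p = 0.246). It had 3.23 and 3.41 FPKM in Camk2a_cKO libraries, against 3.09 and 2.49 FPKM in Camk2a_Ctrl libraries, both cKO values being higher (log2 change 0.19, interval -0.13 to 0.51, adjusted p = 0.847). Aebp2 (ENSMUSG00000030232, chromosome 6, 140622663 to 140678472), a zinc finger protein that stabilises the complex, differed least. It had 12.1, 11.3 and 12.7 FPKM in Nex_cKO libraries, against 11.9, 11.8 and 12.1 FPKM in Nex_Ctrl libraries. The log2 change was 0.01 (interval -0.16 to 0.18, adjusted p = 0.945). It had 7.32 and 7.74 FPKM in Camk2a_cKO libraries, against 7.53 and 7.40 FPKM in Camk2a_Ctrl libraries (log2 change 0.01, interval -0.23 to 0.25, adjusted p = 0.993).

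The Polycomb-like genes spanned nearly the whole range of levels. Phf1 (ENSMUSG00000024193, chromosome 17, 26933127 to 26937890) had 14.6, 13.8 and 11.6 FPKM in Nex_cKO libraries, against 16.1, 16.1 and 15.9 FPKM in Nex_Ctrl libraries. All cKO values were lower and Nex_cKO replicate 3 was the lowest (log2 change -0.25, SE 0.09, interval -0.46 to -0.05, adjusted p = 0.136). Without that library the log2 change was -0.16 (adjusted p = 0.189). In the GENCODE M21 annotation (GRCm38), 39.3% of the exon bases of Phf1 are also exon bases of Cuta on the opposite strand. Nothing in the sources used here states that fragments were counted by strand, so reads of the pair cannot be told apart there. Cuta had 54.6, 53.0 and 32.2 FPKM in Nex_cKO libraries, against 52.6, 49.0 and 56.1 FPKM in Nex_Ctrl libraries, also lowest in Nex_cKO replicate 3, and its part in the Phf1 value was not tested. Phf1 had 8.70 and 10.6 FPKM in Camk2a_cKO libraries, against 7.08 and 9.56 FPKM in Camk2a_Ctrl libraries, with overlapping groups (log2 change 0.20, interval -0.20 to 0.59, adjusted p = 0.868).

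Mtf2 (ENSMUSG00000029267, chromosome 5, 108065674 to 108109004) had 9.04, 9.49 and 12.8 FPKM in Nex_cKO libraries, against 10.6, 10.4 and 10.8 FPKM in Nex_Ctrl libraries. The cKO values lay on both sides of the controls (log2 change -0.04, interval -0.31 to 0.23, adjusted p = 0.881), and without Nex_cKO replicate 3 the log2 change was -0.18 (adjusted p = 0.185). The sign turned under quantile normalization, under rescaling by the median ratio (0.0043 and 0.0039) and when both Mtf2 rows were summed (0.02). Tmed5, on the opposite strand, shares 6.93% of the Mtf2 exon bases. Mtf2 had 6.36 and 4.57 FPKM in Camk2a_cKO libraries, against 6.06 and 5.39 FPKM in Camk2a_Ctrl libraries (log2 change -0.07, interval -0.45 to 0.31, adjusted p = 0.959).

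Phf19 (ENSMUSG00000026873, chromosome 2, 34893757 to 34914026) was the rarest PRC2 transcript in all 4 groups and below the filter in both tables. It had 0.127, 0.222 and 0.0601 FPKM in Nex_cKO libraries, against 0.198, 0.115 and 0.0738 FPKM in Nex_Ctrl libraries. It had 0.134 and 0.283 FPKM in Camk2a_cKO libraries, on 12 and 24 reads, against 0.0923 and 0.151 FPKM in Camk2a_Ctrl libraries, on 8 and 15 reads. The exact 95% Poisson intervals of the lowest and the highest of these counts were 3.45 to 15.8 reads and 15.4 to 35.7 reads. With no filter its adjusted p was 0.958 for Nex and 0.870 for Camk2a.

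**Figure D2:**
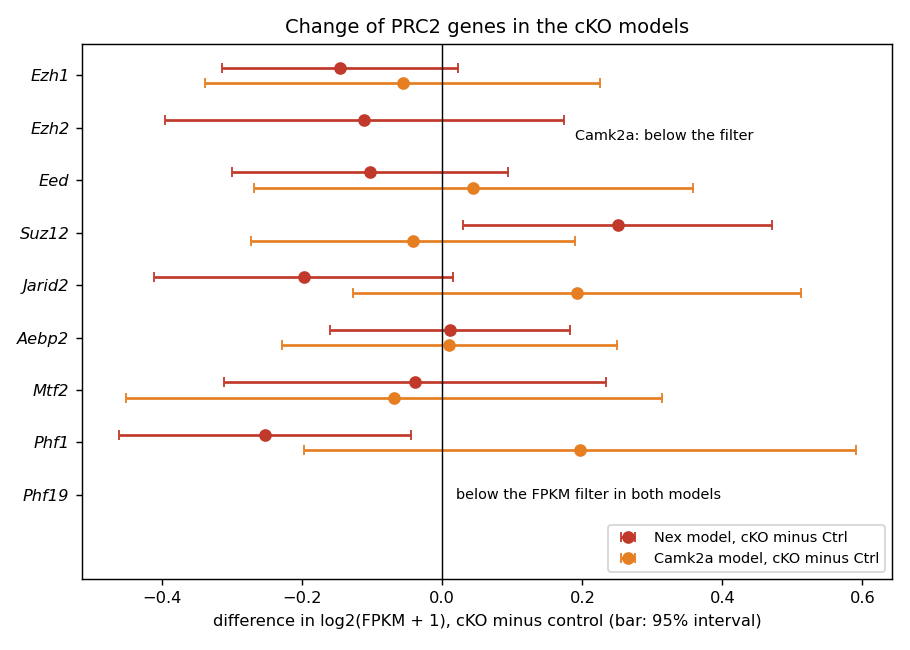
Difference in log2(FPKM + 1) between cKO and control for the 8 PRC2 genes tested in the Nex model and the 7 tested in the Camk2a model; points are limma estimates, bars 95% intervals without adjustment for multiple testing. The intervals of Suz12 (0.03 to 0.47) and Phf1 (-0.46 to -0.05) in the Nex model leave out 0, and no PRC2 gene passed after adjustment.

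In Nex_cKO libraries the order of mean FPKM was Ezh1, Phf1, Aebp2, Mtf2, Suz12, Eed, Jarid2, Ezh2 and Phf19. In Nex_Ctrl libraries Phf1 stood above Ezh1 (16.0 ± 0.149 and 15.3 ± 0.238 FPKM; SD, n = 3) and the rest of the order was the same. Each neighbour in the Nex_Ctrl order was separated by library ranges that did not overlap, whereas in Nex_cKO libraries the ranges of neighbours from Ezh1 down to Suz12 overlapped. The first 3 places in the Camk2a model were held by Phf1, Ezh1 and Suz12 in cKO libraries and by Ezh1, Suz12 and Phf1 in control libraries, with overlapping ranges. The summed FPKM of the 9 genes was 66.6 to 72.8 in Nex_cKO and 72.6 to 75.1 in Nex_Ctrl libraries. Of that sum Suz12 made up 13.3%, 12.6% and 14.7% in Nex_cKO libraries, against 10.6%, 10.5% and 10.6% in Nex_Ctrl libraries, the cKO shares all being higher. Ezh2 and Phf19 closed the order in all 4 groups. Among the rows tested in the Nex model, 59.9% had a lower mean than Ezh1 in cKO and 62.0% in control libraries. The shares below Ezh2 were 0.734% in cKO and 3.78% in control libraries. Rows of lower level had been removed by the filter at FPKM 1, which Ezh2 only just passed. The Ezh2 shares thus follow from the filter and do not rank Ezh2 among all genes.

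The balance of the accessory subunits chosen here was given by the summed FPKM of Jarid2 and Aebp2 over that of Phf1, Mtf2 and Phf19. It was 0.689, 0.652 and 0.693 in Nex_cKO libraries, against 0.635, 0.637 and 0.618 in Nex_Ctrl libraries. All cKO ratios were higher, and the difference in the log2 ratio was 0.11 (exact permutation test, two-sided, p = 0.1, the smallest that 3 against 3 allow). It was 0.694 and 0.724 in Camk2a_cKO libraries, against 0.803 and 0.655 in Camk2a_Ctrl libraries. The control values lay on both sides of the cKO values (difference in the log2 ratio -0.03, exact permutation test, two-sided, p = 1), and without Camk2a_Ctrl replicate 1 the difference was 0.11. The ratio includes Phf1, which shares exon bases with Cuta. It leaves out Epop, a PRC2.1 subunit with means of 89.4 FPKM in Nex_cKO and 102.8 FPKM in Nex_Ctrl libraries. The values thus describe the chosen genes only, not all PRC2.2 and PRC2.1 transcripts.

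**Figure D3:**
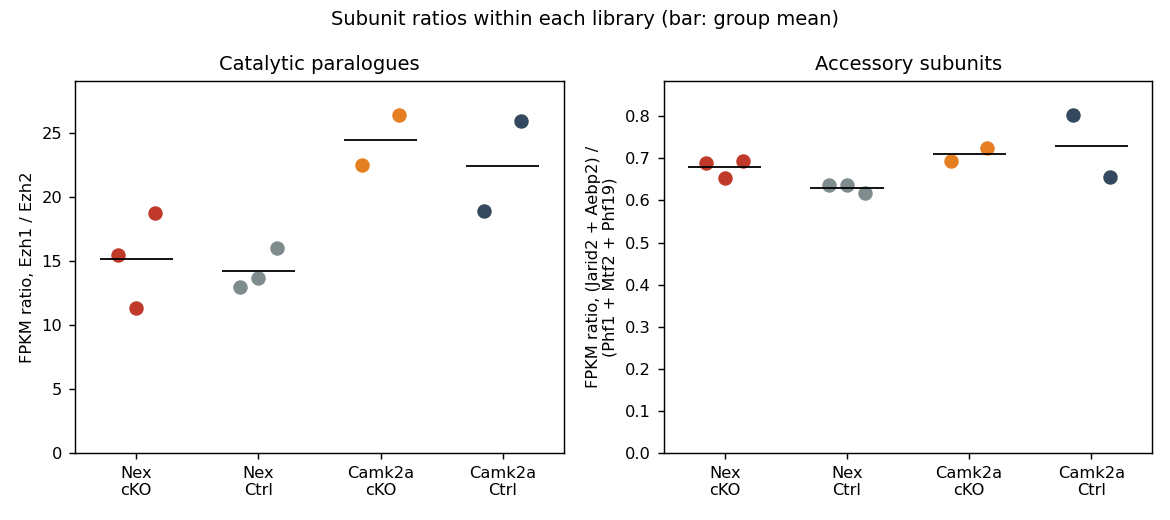
FPKM ratio of Ezh1 to Ezh2 (left) and of summed Jarid2 and Aebp2 to summed Phf1, Mtf2 and Phf19 (right) in each library. Axes are linear from 0, and bars are group means. Epop is not in the ratio. The catalytic ratio runs from 11.4 to 26.5, and the accessory ratio of the 3 Nex_cKO libraries (0.652 to 0.693) lies above that of the 3 Nex_Ctrl libraries (0.618 to 0.637).

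Whether the changes differed between the models was tested for the 7 PRC2 genes tested in both, as the Nex change minus the Camk2a change, with age, driver and table differing together. Sex-linked transcripts differed too: the 4 Camk2a libraries had 11.0 to 12.4 FPKM of Ddx3y and Xist at or near 0, while 5 of the 6 Nex libraries had Ddx3y at 0 and 33.6 to 46.5 FPKM of Xist. Of them 0 were called (limma, adjusted over 10407 genes), where 0.528% of all genes were. At an unadjusted p under 0.05, 2 stood out, where 13.3% of all genes did: Jarid2 (difference of log2 changes -0.39, SE 0.15, interval -0.72 to -0.06, adjusted p = 0.311) and Phf1 (difference -0.45, SE 0.18, interval -0.85 to -0.05, adjusted p = 0.335). Without Camk2a_Ctrl replicate 1 the Phf1 difference was -0.26 (adjusted p = 0.809), and neither gene stood out without Nex_Ctrl replicate 1, Nex_Ctrl replicate 2 or Camk2a_cKO replicate 2. Suz12 had a difference of 0.29 (interval -0.01 to 0.60, adjusted p = 0.388), with every Nex_cKO library above its controls and every Camk2a_cKO library below its controls. The other 4 had differences between -0.15 (Eed) and 0.03 (Mtf2).

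Markers of other cell types moved with the groups, and their part in these values was not tested. In the Nex model 0 of 5 oligodendrocyte markers were called and their sum was 885 to 1090 FPKM in cKO, against 1175 to 1277 FPKM in control libraries. Of 5 endothelial markers 1 fell and 0 rose, and the sum was 35.5 to 44.8 FPKM in cKO, against 50.5 to 64.6 FPKM in control libraries. The marker that fell was Cldn5, with a mean of 25.5 FPKM in cKO, against 39.9 FPKM in control libraries. The other endothelial log2 changes ran from -0.28 (Cdh5) to -0.11 (Pecam1). The red blood cell loci all fell (3 of 3 tested), with a sum of 54.2 to 97.4 FPKM in cKO, against 130.4 to 287.0 FPKM in control libraries. Among Camk2a libraries 0 of 5 endothelial and 0 of 5 red blood cell markers were called, and their sums lay the other way. The endothelial sum was 40.4 to 41.3 FPKM in cKO, against 31.8 to 32.4 FPKM in control libraries. Most of that difference was in Cldn5 (mean 24.8 FPKM in cKO, against 16.3 FPKM in control libraries). The other endothelial log2 changes went both ways, from -0.14 (Tek) to 0.13 (Cdh5). The red blood cell sum was 124.4 to 159.3 FPKM in cKO, against 80.4 to 100.9 FPKM in control libraries. Of the oligodendrocyte precursor markers in the Nex model, Cspg4 rose (log2 change 0.60, adjusted p = 0.0213) and Sox10 fell (log2 change -0.37, adjusted p = 0.0187), and the sum was 29.6 to 37.3 FPKM in cKO, against 37.1 to 38.8 FPKM in control libraries. Their sum was 20.6 to 25.7 FPKM in Camk2a_cKO, against 17.9 to 18.7 FPKM in Camk2a_Ctrl libraries, with 0 of 4 called. Sums over microglial, astrocyte and GABAergic markers overlapped between the groups in both models. In the Nex model the astrocyte marker Gfap (log2 change 0.82, adjusted p = 0.00605) and the GABAergic marker Gad2 (log2 change 0.63, adjusted p = 0.00203) rose. The rest of these 2 lists was not called and went both ways. Log2 changes ran from -0.07 (Aldh1l1) to 0.07 (Slc1a3) for astrocyte and from -0.47 (Sst) to 0.25 (Vip) for GABAergic markers.

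The wider Polycomb system was read from lists of related genes. Of 5 tested genes for other PRC2 subunits, 0 were called in either model (median log2 change 0.10 in the Nex and -0.02 in the Camk2a model). Epop, a subunit of PRC2.1 listed in the 2.5-month table under its older symbol, had a mean of 89.4 FPKM in Nex_cKO and 102.8 FPKM in Nex_Ctrl libraries (log2 change -0.20, adjusted p = 0.127). Of the PRC1 genes, whose products ubiquitinate histone H2A and bind the PRC2 mark, 0 of 11 canonical ones were called in the Nex model (median 0.03) and 0 of 12 in the Camk2a model (median 0.04). Of 16 variant PRC1 genes, 1 fell and 0 rose in the Nex model (median log2 change -0.11), and 0 were called in the Camk2a model (median 0.02). The one that fell was a locus joining Bcor, a corepressor of variant PRC1, with 2900008C10Rik, with a mean of 9.69 FPKM in Nex_cKO and 13.7 FPKM in Nex_Ctrl libraries (log2 change -0.45, adjusted p = 0.0471). How its change divides between the joined genes could not be read. The adjusted p of this locus lay just under the threshold of 0.05. As background, 4.06% of the 12528 rows tested from Nex libraries were called lower and 4.47% higher. Whether any related list departs from these shares was not tested. Of 9 PR-DUB genes, whose products remove the PRC1 mark, 0 were called in either model (median 0.02 in both). Of the lysine 27 demethylases, 0 of 2 were called in the Nex (median 0.14) and 0 of 3 in the Camk2a model (median -0.15). Of the lysine 36 methyltransferases, which include Nsd1, 0 of 5 were called in either (median 0.02 for Nex, -0.06 for Camk2a). In the Nex model the rows of Nsd1, Nsd3, Setd2, Kdm6b, Bmi1, Fbrsl1, Lcor and Lcorl also joined another gene. How their values divide between the joined genes could not be read.

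**Figure D4:**
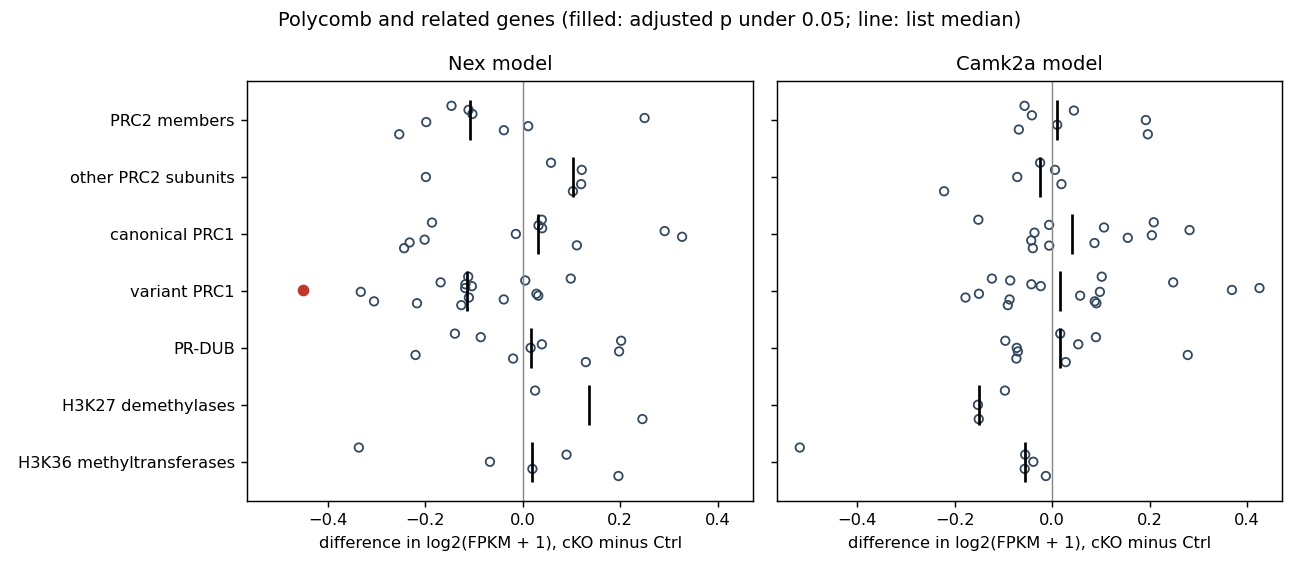
Difference in log2(FPKM + 1), cKO minus control, of each tested gene of PRC2, PRC1, PR-DUB and the related histone enzymes in the Nex (left) and Camk2a (right) model; open circles did not pass, the filled circle is the Bcor locus (-0.45), and black lines are list medians. The median of the PRC2 genes is -0.11 in the Nex and 0.01 in the Camk2a model. Some points of the Nex model are rows that join a listed gene with another.

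Genes that are classical PRC2 targets were read as sums, without a filter, since many are near 0 in control cortex. They are developmental transcription factors and the cell cycle inhibitor genes Cdkn2a and Cdkn2b, together called factors here. The list was drawn up with earlier results of these data known and holds 5 factors already seen to be raised in the Nex model (Vax2, Barx1, Twist1, Pax2 and Tbx1), so its direction is no evidence of its own. Of 60 factors 8 were tested in the Nex model and 5 rose, and 1 was tested in the Camk2a model and 0 were called; of those that rose, Vax2, Barx1, Twist1 and Pax2 passed the filter through their cKO libraries and Tbx1 also through its controls. Barx1 had 3.50, 3.05 and 3.80 FPKM in Nex_cKO libraries and was listed at 0 in all Nex_Ctrl libraries, and Vax2 had 3.45, 4.20 and 4.57 FPKM in Nex_cKO libraries, against 0, 0.0487 and 0 FPKM in Nex_Ctrl libraries. Over the other 54 factors with a row of their own in the Nex table, 23 of which were at 0 in every library, the sum was 7.85 to 10.4 FPKM in Nex_cKO, against 6.18 to 7.92 FPKM in Nex_Ctrl libraries, and these ranges overlapped. With the row that joins Tbx15 with Wars2 added (55 rows), the sum was 9.50 to 11.7 FPKM in Nex_cKO, against 7.68 to 9.32 FPKM in Nex_Ctrl libraries, without overlap. That row had a mean of 1.77 FPKM in Nex_cKO and 1.47 FPKM in Nex_Ctrl libraries and was not called. Wars2 is not on the list of factors, and how much of the row is Tbx15 could not be read. Of the 54 factors, 7 had all cKO values above all control values and 2 had all below. Among all rows that passed the filter in the Nex model, 30.4% did not overlap, in either direction. The 54 were not filtered, and the 23 at 0 in every library could not separate, so the counts cannot be set against that share. Over the 5 factors the sum was 15.8 to 20.6 FPKM in Nex_cKO, against 1.84 to 2.73 FPKM in Nex_Ctrl libraries. Among Camk2a libraries the 5 summed to 1.34 to 1.68 FPKM in cKO, against 0.503 to 0.687 FPKM in control libraries. Twist1, a factor of mesenchymal tissue, had 0.587 and 0.621 FPKM in Camk2a_cKO libraries, against 0.107 and 0.155 FPKM in Camk2a_Ctrl libraries, below the filter. The other 55 factors summed to 6.17 to 6.56 FPKM in Camk2a_cKO, against 5.19 to 5.85 FPKM in Camk2a_Ctrl libraries, without overlap. Of these 55, 28 were at 0 in every library and could not separate, 4 had all cKO values above all control values and 1 had all below. Among all rows that passed the filter in the Camk2a model, 37.3% did not overlap, in either direction. The unfiltered counts cannot be set against that share either.

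Phf1 had the smallest p of the PRC2 genes in the Nex model. The rows whose log2(FPKM + 1), centred over the 6 Nex libraries, differed least from it by root mean square were Jazf1 (0.018), the joined locus Mir7025/Pdgfra (0.022) and Edf1 (0.027). Each, like Phf1, was lowest in Nex_cKO replicate 3. Jazf1 had 8.81, 8.46 and 7.04 FPKM in Nex_cKO libraries, against 9.99, 9.67 and 9.85 FPKM in Nex_Ctrl libraries, and its adjusted p was 0.142.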

How the data were processed

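RNA from 10 cortex libraries was sequenced after extraction with RNAiso Plus and preparation with an NEBNext Ultra II RNA kit, per the labels' protocols. Tools named in the submitters' processing notes, with no role or order, are STAR, DESeq2, cutadapt and Cufflinks 2.2.1, and the builds are mm10 and GRCm38; the annotation is not given in the sources used here. The authors deposited FPKM values in 2 tables, one per model. FPKM is scaled to the fragments of each library, so a few very abundant rows lower all others. In the 3-month table, multiplying FPKM by gene length gave, for 100% of values, a whole number of library-specific steps (tolerance 0.1), hence reads per gene; the 2.5-month depth is unknown. Gene lengths are in bases, as deposited.

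Unnamed rows (4463) were not tested, and of rows sharing a name the one of highest mean FPKM was kept. Rows reaching FPKM 1 in at least the smaller group's number of libraries were compared as log2(FPKM + 1), each table apart, with limma 3.58.1 under R 4.3.3, moderating variances along an intensity trend. A log2 change on this scale understates that of low genes. P-values are two-sided and adjusted by Benjamini-Hochberg over all rows tested; intervals are 95% and unadjusted. The fit was tested on simulated data. Single ratios were compared with exact permutation tests. The PRC2 genes, the related lists and the rule for named genes were chosen with earlier results of these data known. The rule for named genes took all 9 PRC2 genes, Nsd1, up to 3 called members per related list and the 3 rows most like the PRC2 gene of smallest p in the Nex model; Epop, Cuta, Tmed5, Ddx3y, Xist, Mki67 and single cell type markers were chosen after their values were seen. Alternatives were quantile normalization, no filter or one of FPKM 5, a pseudocount of 0.1, median ratio rescaling, no trend, robust moderation, a replicate block, voom on recovered reads and leaving out each library. Promoter sequences are from RefSeq.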

Additional observations from a re-analysis of the deposited data

Results flagged for a closer look

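A second, weak row named Mtf2 in the 2.5-month table was not part of the comparison. It had 0.735 and 0.655 FPKM in Nex_cKO replicates 1 and 3 and was listed at 0 in Nex_cKO replicate 2, against 0, 0.00114 and 0 FPKM in Nex_Ctrl replicates 1 to 3. It stands out because 2 of the 3 cKO libraries exceed the highest control value. The table gives no position for the row, and what transcript it holds was not tested.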

How the results depend on the processing

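The number of PRC2 genes called was 0 in each model and for the difference between models under every alternative run, including each library left out (0 to 0). The labels do not say that replicate numbers pair the samples. Deviations from group means in same-numbered libraries correlated at -0.10 to 0.02 over 3 Nex pairs and 0.05 in the Camk2a model. Such correlations cannot decide whether samples were paired. With a replicate block the count of PRC2 genes called was again 0 in both models. Over all rows, the 1069 called in the Nex model became 544 with a filter of FPKM 5 and 603 to 1265 without 1 library. For the difference between models, the 55 called became 32 with a pseudocount of 0.1, 276 with no filter, 6 with a filter of FPKM 5 and 15 to 92 without 1 library. The 0 called in the Camk2a model became 5 with no intensity trend and 1 each with a filter of FPKM 5, robust moderation and voom. At an unadjusted p under 0.05, the 2 PRC2 genes of the Nex model became 0 without Nex_Ctrl replicate 1 or 2, 1 without Nex_cKO replicate 1, and 3 with quantile normalization (Ezh2, Suz12 and Jarid2), with no intensity trend (Suz12, Jarid2 and Phf1) and without Nex_cKO replicate 3 (Ezh1, Mtf2 and Phf1). For the difference between models the 2 became 0 to 3 without 1 library. Signs turned only for results that no setting called. With quantile normalization and with median ratio rescaling Mtf2 in the Nex model had log2 changes of 0.0043 and 0.0039, and with both of its rows summed, an alternative chosen after seeing the data, 0.018. Suz12 in the Camk2a model had 0.0090 with voom on recovered reads. With 1 added to each FPKM value the difference in the Ezh1 to Ezh2 log2 ratio was -0.035 in the Nex and -0.0037 in the Camk2a model, and with quantile normalization it was 0.40 and 0.33. Without 1 library, this difference ran from -0.095 to 0.27 and from -0.091 to 0.37, and that of the accessory subunit ratio from 0.09 to 0.13 and from -0.18 to 0.11. The log2 changes in the Nex model ran from -0.027 to 0.052 for Aebp2 and -0.18 to 0.048 for Mtf2. In the Camk2a model they ran from -0.16 to 0.046 for Ezh1, -0.043 to 0.13 for Eed, -0.026 to 0.046 for Aebp2 and -0.27 to 0.13 for Mtf2. The differences between models ran from -0.19 to 0.013 for Ezh1, -0.037 to 0.042 for Aebp2 and -0.17 to 0.23 for Mtf2, and from -0.64 to -0.26 for Phf1 and -0.51 to -0.28 for Jarid2, which kept their sign. The cause was not tested. With a library left out of the Camk2a model, 1 group has a single library, assumed to vary like the other. In the Camk2a libraries Ezh2 and Phf19 rest on 8 to 49 reads, so small differences of these genes were not detectable there.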
